A study of Saccharomyces cerevisiae with 24 samples.

Results

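The long open reading frames (ORFs) described here are the Verified ORFs of 3500 bp or more on the 16 nuclear chromosomes of the authors' annotation of the budding yeast strain W303. Verified is the class given to an ORF whose product has experimental support in S288C, the reference strain. Length was counted from the first to the last base of the gene feature, and names starting FLO, the flocculin genes of the cell wall, were left out. The rule gave 264 ORFs out of 5078 Verified ORFs and out of 5613 gene features of any class.

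The annotation belongs to a ChIP-seq study of Uls1, a Snf2-family ATPase, and Top2, the type II topoisomerase that passes one DNA duplex through another. FLAG-tagged Uls1 was precipitated from wild-type cells kept for 2 h in rich medium with 0 or 100 µM acriflavine (ACF), a Top2 poison, and HA-tagged Top2 from wild-type and uls1Δ cells kept for 2 h with 0 or 250 µM ACF, each with its input. All strains derive from a W303 strain with the markers ade2-1, trp1-1, his3, ura3-1, leu2 and can1-100 and a functional RAD5 (RAD5+). The FLAG-Uls1 strain was made from a uls1::URA3 strain by putting FLAG-ULS1 with TRP1 at uls1, and the uls1Δ Top2 strain derives from the same uls1::URA3 strain. The Top2 strains carry an additional HA-tagged copy of TOP2 under its own promoter, with NAT and KAN cassettes. The 24 libraries form 12 groups of 2 replicates, and no library value was analysed here. The annotation holds positions and labels with no replicate error. ORFs of 1 genome are not replicates, so shares and medians are given beside those of the other Verified ORFs as a description, with no test.

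A long ORF encodes a large protein, and in budding yeast, where introns are few, the length of a gene follows that of its protein closely. Very large yeast proteins include scaffolds built from helical repeats, motors, enzymes that carry several catalytic domains in one chain, and transporters with many membrane spans. During transcription of a gene the polymerase leaves DNA overwound ahead of it and underwound behind it, and topoisomerases relax this torsion.

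Some sequences show how the ends and the interior of these ORFs are defined. They were read from the S288C reference R64 (RefSeq) in its own coordinates, since the sequence of the W303 assembly was not used here. Each is written 5′ to 3′ on the coding strand of the gene named first, with the meaning of the capitals given for each.
MIP1, encoding the mitochondrial DNA polymerase, chr15:943383-943463, minus strand, with an upstream ATG and the R64 start codon in capitals: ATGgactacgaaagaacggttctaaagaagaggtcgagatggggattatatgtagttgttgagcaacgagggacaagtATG
MSH3, encoding a mismatch repair protein, chr3:279818-279908, minus strand, with an upstream ATG and the R64 start codon in capitals: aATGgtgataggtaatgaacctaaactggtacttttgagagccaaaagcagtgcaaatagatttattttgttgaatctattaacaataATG
HKR1, encoding a membrane mucin, chr4:1308209-1308292, plus strand, 1 repeat unit of 84 bases: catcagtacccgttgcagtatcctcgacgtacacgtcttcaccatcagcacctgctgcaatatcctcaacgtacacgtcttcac
RPO21, encoding the largest subunit of RNA polymerase II, chr4:210559-210601, minus strand, with the reverse complement of an ARS word and the start codon in capitals: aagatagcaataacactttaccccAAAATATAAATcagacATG
VPS8 and TFC3, the bases between the ends of these convergent genes, chr1:147532-147593, plus strand: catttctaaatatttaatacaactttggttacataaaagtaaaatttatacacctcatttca
IKI3 and SWC7, the bases upstream of IKI3, chr12:892901-892991, minus strand: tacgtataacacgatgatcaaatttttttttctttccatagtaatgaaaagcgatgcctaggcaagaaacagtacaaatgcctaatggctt
SSD1, chr4:1047272-1047328, minus strand, with the codon at which the W303 feature ends in capitals: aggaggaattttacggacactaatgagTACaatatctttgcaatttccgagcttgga
BUD4, chr10:601223-601279, plus strand, with a stop triplet outside the R64 reading frame in capitals: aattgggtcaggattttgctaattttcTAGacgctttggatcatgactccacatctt

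The lengths ran from 3510 to 14733 bp with a median of 4350 bp and quartiles of 3829.5 and 5006.25 bp, whereas the median of the other Verified ORFs was 1214.5 bp. Length is what the rule used, so this is no finding. Of the 264 ORFs, 176 had 4000 bp or more, 66 had 5000 bp or more, 17 had 7000 bp or more and 3 had 10000 bp or more. The members nearest to the threshold were RAD5 at 3510 bp, NCR1, RGT1 and SMC2 at 3513 bp each and PMC1 at 3522 bp. The Verified ORFs just under it were CHS3 and VAC7 at 3498 bp each, KEL1 at 3495 bp, and BBC1 and NUP133 at 3474 bp each. The threshold thus separates ORFs whose lengths differ by 12 bp, and RAD5, the repair translocase, stands inside by 10 bp.

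**Figure D1:**
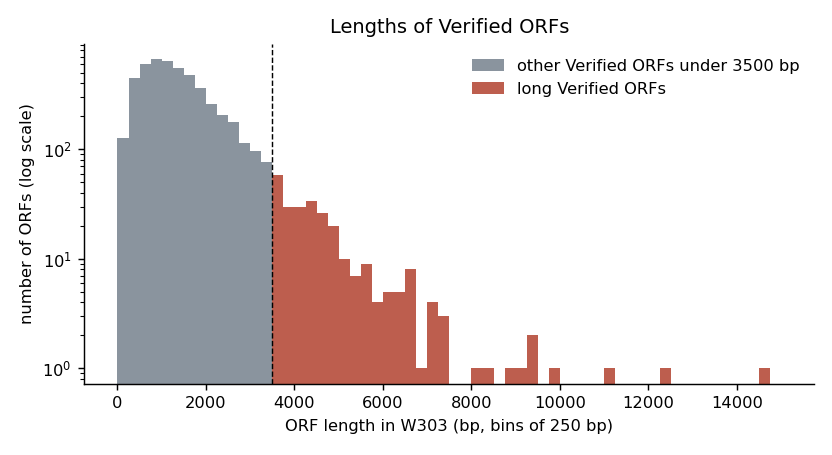
Number of Verified ORFs (log scale) in bins of 250 bp of W303 length, with the threshold of 3500 bp as a dashed line. FLO genes of 3500 bp or more are left out. The long ORFs on the right of the line fall off from 3510 bp to MDN1 at 14733 bp, and 66 of the 264 have 5000 bp or more.

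MDN1, an AAA ATPase that remodels pre-ribosomes, was the longest ORF with 14733 bp on the minus strand of chromosome 12, from 364274 to 379006 in W303 coordinates (assembly ASM216351v1). It was followed by DYN1, the heavy chain of cytoplasmic dynein, with 12279 bp on chromosome 11, and TRA1, the scaffold of the SAGA and NuA4 histone acetyltransferases, with 11235 bp on chromosome 8. TOM1, a ubiquitin ligase, had 9807 bp. VPS13 with 9435 bp and CSF1 with 8877 bp encode lipid transfer proteins at membrane contacts. IRA1 with 9279 bp and IRA2 with 9240 bp encode the GTPase-activating proteins of Ras. TEL1, the ATM-like checkpoint kinase, had 8364 bp and GCN1, which activates the kinase Gcn2 when amino acids are scarce, 8019 bp. The next were UTP20 (ribosome assembly) with 7482 bp, the TOR kinase genes TOR2 with 7425 bp and TOR1 with 7413 bp, PRP8 (the core splicing factor) with 7242 bp and TAO3 (cell morphogenesis) with 7131 bp. The 20 longest ended with MEC1, the ATR-like checkpoint kinase, at 7107 bp, NUM1, a cortical anchor of dynein, at 7053 bp, FAB1, a lipid kinase of the vacuole, at 6834 bp, SLH1, an RNA helicase, at 6711 bp and ACC1, the acetyl-CoA carboxylase, at 6702 bp. These 20 stood on 11 of the 16 chromosomes, and chromosome 2 held 4 of them.

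The genes that the study is about are themselves members. ULS1 had 4860 bp and rank 78 by length, on the plus strand of chromosome 15 (693230 to 698089). Its upstream neighbour, 442 bp away in tandem, was SPR1, a glucanase of the spore wall, and its downstream neighbour, 1433 bp away and convergent, was THI72, a thiamine transporter homologue. TOP2 had 4287 bp and rank 142, on the plus strand of chromosome 14 (458972 to 463258). It lay between RHO2, a small GTPase, 561 bp upstream and TCB2, a tether of the ER and plasma membrane, 420 bp downstream, all in the same direction. TCB2 is a long ORF of 3537 bp as well. Both genes have the same length in R64.

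The members were put into 11 roles by hand, from their names and after the names had been seen, with 6 ORFs left as other or not known. Other Verified ORFs were given no role, so no share of all Verified ORFs can be set beside these counts. Chromatin and transcription was the largest role with 40 ORFs (15.2% of members), followed by signalling with 36 and vesicle traffic, lipid transfer and autophagy with 35. Membrane transport, RNA processing with the nuclear pore, and DNA replication, repair and chromosome structure had 26 ORFs each. Metabolic enzymes had 20, cytoskeleton and polarity 19, ribosome assembly and translation 12, ubiquitin and proteasome 11 and the cell wall 7. Median lengths were alike among the roles, from 3819 bp in ribosome assembly and translation to 4845 bp in the cell wall, not counting the ORFs with no role. The longest ORF of a role ranged from 5688 bp in the cell wall to 14733 bp in ribosome assembly.

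**Figure D2:**
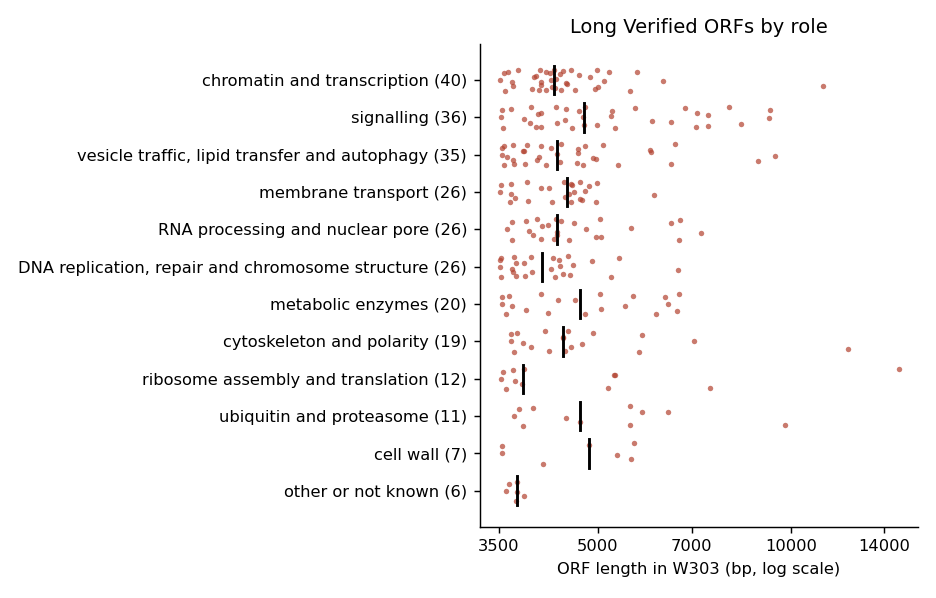
Length of each of the 264 long ORFs in W303 (log scale) by role, with the number of ORFs in parentheses and the median as a black bar. Medians of the named roles lie between 3819 and 4845 bp, and single ORFs such as MDN1 and DYN1 stand far above the rest of their role.

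Lists of genes by function were also set against the threshold. They are short picks, made with earlier results known, and not whole families, so each count holds for its list alone. All 5 PI3-kinase-like kinases of the list were members, from MEC1 at 7107 bp to TRA1 at 11235 bp. So were the 6 listed motors (dynein and 5 myosins, with no kinesin on the list), from MYO5, a type I myosin, at 3660 bp to DYN1, and the 3 listed glucan synthase genes, GSC2 at 5688 bp, FKS1 at 5631 bp and FKS3 at 5358 bp. All 13 multi-domain enzymes of the list were members as well, from PYC1, a pyruvate carboxylase, at 3537 bp to ACC1 at 6702 bp. FAS1 with 6156 bp and FAS2 with 5664 bp encode the subunits of fatty acid synthase, and URA2 with 6645 bp joins the first steps of pyrimidine synthesis in one chain. The 8 listed ribosome assembly factors and the 7 listed genes of splicing, RNA helicases and RNA decay passed. Both listed genes of translation control, GCN1 and the kinase gene GCN2 at 4980 bp, did too.

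Of 17 listed Snf2-family genes 9 were long ORFs. They were MOT1 (which removes TBP from DNA) at 5604 bp, SNF2 at 5112 bp, ULS1 at 4860 bp, IRC20 at 4671 bp, SWR1 at 4545 bp, INO80 at 4470 bp, CHD1 at 4407 bp, STH1 at 4080 bp and RAD5 at 3510 bp. SNF2, STH1, SWR1 and INO80 encode the ATPases of the SWI/SNF, RSC, SWR1 and INO80 remodelling complexes. The other 8 were shorter, from RAD16, a nucleotide excision repair gene, at 2373 bp to FUN30 at 3396 bp. The threshold therefore divides a family with related motors, and the sizes run on from the shorter to the longer genes without a wide gap.

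Among genes of chromosome structure, SMC1 (3678 bp) and SMC3 (3693 bp) of cohesin and SMC2 (3513 bp) and SMC4 (4257 bp) of condensin were members. SMC5 at 3282 bp and SMC6 at 3345 bp were not. TOP2 was the only one of the 3 topoisomerase genes listed that passed, since TOP1 has 2310 bp and TOP3 1971 bp. Of the 4 listed DNA polymerase genes POL2 (6669 bp), REV3 (4515 bp) and POL1 (4407 bp) passed and POL3 at 3294 bp did not. MIP1, which was not on that list, is a member at 3843 bp. Of the 6 listed RNA polymerase large subunits RPO21 (5202 bp), RPA190 (4995 bp), RPO31 (4383 bp), RPB2 (3675 bp) and RPA135 (3612 bp) passed, and RET1, the second subunit of RNA polymerase III, fell 50 bp short at 3450 bp.

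Of 15 listed ABC transporter genes 14 were members, between 3657 bp (NFT1) and 4986 bp (YBT1), and 12 of these 14 lay between 4185 and 4986 bp. Examples are the drug exporter genes PDR5 at 4536 bp, SNQ2 at 4506 bp and YOR1 at 4434 bp and the a-factor exporter gene STE6 at 3873 bp. PDR18 had no feature of its name. Of 7 listed P-type ATPase genes 6 were members, among them the lipid flippase genes DNF3 at 4971 bp and DRS2 at 4068 bp, and NEO1 at 3456 bp was not. The ion pump genes PMC1 (3522 bp) and PCA1 (3651 bp) encode P-type ATPases as well and are members outside that list. Over the whole membrane transport role lengths ran from 3513 to 6120 bp. The nuclear pore had 6 of 8 listed genes, the ubiquitin ligases 6 of 7, the Ras and cAMP genes 4 of 5, the transcription co-factors 4 of 6 and vesicle and lipid traffic 11 of 13. Of 7 listed repeat-rich wall or cortex genes 4 were members. MUC1, an older name of the left-out FLO11, had no feature of that name, and AGA1 at 2178 bp and HPF1 at 2967 bp were shorter.

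Gene Ontology terms carried by the annotation give another view of function. The terms named here were picked after their shares had been seen. The mitochondrion term was on 72 of the 264 long ORFs (27.3%), against 18.5% of all Verified ORFs. The term for integral membrane components was on 55 (20.8%, all Verified ORFs 14.4%), plasma membrane on 29 (11.0%, all Verified ORFs 6.62%), mRNA binding on 18 (6.82%, all Verified ORFs 3.39%) and endocytosis on 12 (4.55%, all Verified ORFs 1.44%). Double-strand break repair was on 11 (4.17%) against 0.591% of all Verified ORFs, and nuclear pore and ubiquitin-protein transferase activity were on 9 each (3.41%), against 0.985% and 1.58%. The mark for a molecular function not known was on 41 (15.5%) against 23.7%. Long ORFs had a higher share of each named function term and a lower share of the unknown mark, and these shares were not tested.

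The notes of 53 long ORFs (20.1%) name a paralogue from the whole genome duplication, against 20.0% of all Verified ORFs. With the partner also long there were 22 pairs, all on different chromosomes, and 11 of the notes name a partner that is not a long ORF. The 44 ORFs in pairs and these 11 are separate counts that do not add up to the 53. The shorter copy had a median of 96.2% of the length of the longer, with a range from 84.3% to 99.9%. SIP3 at 3690 bp and YSP1 at 3687 bp, which encode sterol transfer proteins, differed by 3 bp, PYC1 and PYC2 (3543 bp) by 6 bp and TOR1 and TOR2 by 12 bp. The widest differences were 798 bp between PMD1 (5262 bp) and MDS3 (4464 bp), regulators of meiotic genes, and 744 bp between the MAP kinase kinase kinase genes SSK2 (4740 bp) and SSK22 (3996 bp). Lengths within a pair were close, but the upstream gaps were not always so. The gap was 1551 bp at PDR5 and 772 bp at its paralogue PDR15, and 1095 bp at IRA2 and 396 bp at IRA1. In 14 of the 22 pairs both copies had the same orientation to the upstream gene, and no such share was computed for other pairs of ORFs. MLP1 and MLP2 were counted as not the same, since the gene upstream of MLP2 has no strand.

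The gap on the start codon side, measured to the nearest feature of any class on either strand, had a median of 550 bp in the 262 long ORFs with a strand and of 455 bp in 4713 other Verified ORFs. The quartiles were 366 and 820 bp in long ORFs and 286 and 751 bp in the others. Long ORFs were thus higher at both quartiles and at the median, and the ranges overlapped almost fully. On the stop codon side the medians were 296 and 300 bp, with quartiles of 204 and 466 bp in long ORFs and 187 and 480 bp in the others. The upstream gap was longer than the downstream gap in 201 of 261 long ORFs (77.0%) and in 69.8% of other Verified ORFs. None of the long ORFs with a strand was touched by its neighbour on either side. Gaps of 0 bp were rare in the other Verified ORFs too, with 11 of 4713 upstream and 26 of 4712 downstream.

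**Figure D3:**
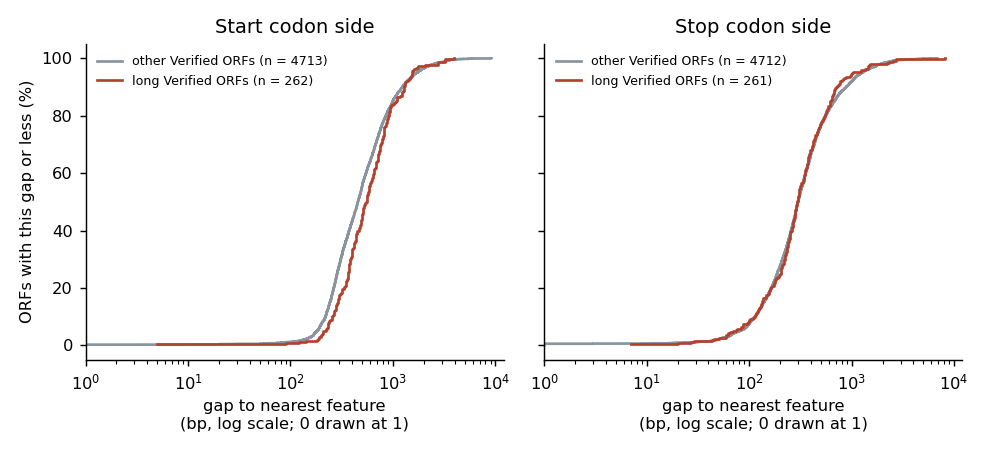
Cumulative share of ORFs (percent) against the gap to the nearest feature (bp, log scale) on the start codon side and on the stop codon side. The curve of the long ORFs lies to the right of the other Verified ORFs on the start codon side, with medians of 550 and 455 bp, and the curves nearly coincide on the stop codon side, with medians of 296 and 300 bp.

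Median upstream gaps of all Verified ORFs did not rise evenly with length. They were 425 bp for ORFs under 1000 bp, 480.5 bp from 1000 to under 2000 bp, 466 bp from 2000 to under 3500 bp and 558 bp at 3500 bp or more, FLO genes included there. tRNA features are annotated on chromosomes 1 to 7 only. On these the medians were 492 bp in 103 long ORFs and 460 bp in the others, and on chromosomes 8 to 16 they were 614 bp in 159 long ORFs and 453 bp in the others. The difference between long and other ORFs was therefore 32 bp on chromosomes 1 to 7 and 161 bp on chromosomes 8 to 16. With gene features alone the medians were 577 and 471 bp. In the R64 annotation the same genes had medians of 495 and 416 bp. Long ORFs had the longer median in each of these settings.

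By role, the median upstream gap ran from 420 bp in DNA replication, repair and chromosome structure to 816 bp in the 7 cell wall genes, with 777 bp in membrane transport and 739 bp in chromatin and transcription. The quartiles were wide, for example 252.75 and 686.5 bp in DNA replication and repair and 440.25 and 1230.5 bp in membrane transport, so the roles overlapped. Among the short lists, the median upstream gap was lowest at 281 bp in 7 genes of splicing, RNA helicases and RNA decay. It was highest at 926 bp in 3 glucan synthase genes. The ABC transporters (14 members) had 891.5 bp, the RNA polymerase large subunits (5 members) 846 bp and the Snf2 family (9 members) 825 bp.

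The shortest upstream gap was 5 bp at RPO21, whose start codon follows a match to the 11-base ARS consensus. An ARS feature in this file is a match to the consensus of replication origins and not a mapped origin. In the R64 sequence printed above the word AAAATATAAAT, the reverse complement of the noted ATTTATATTTT, also ends 5 bases before the ATG. To the nearest gene, SCM3, RPO21 had 813 bp. The next shortest gaps were at IKI3, an Elongator subunit, with 91 bp to SWC7, at RSE1, a splicing factor, with 120 bp to GSF2, at SGS1, the RecQ helicase, with 142 bp to SPG5 and at SIP3 with 182 bp to FOL1. The IKI3 gap is printed above and has 91 bp in R64 as well. The SGS1 and SIP3 gaps are 397 and 302 bp in R64, since the W303 features of SPG5 and FOL1 are 255 and 120 bp longer.

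The longest upstream gaps were at genes of several roles. DAN4, a cell wall mannoprotein gene of anaerobic growth, had 3925 bp to DAL5, PMC1, the vacuolar calcium pump gene, 3253 bp to PMA1, NFT1, an ABC transporter gene, 3214 bp to FLO10, RKR1, a ubiquitin ligase gene, 2760 bp to GAD1 and TUS1, an exchange factor gene for Rho1, 2757 bp to a TKP/TY feature. TKP/TY is the label of Ty retrotransposon genes. R64 lists additional features in some of these intervals, so that the nearest one is 1839 bp from DAN4, 387 bp from PMC1 and 329 bp from RKR1, a tRNA gene. The NFT1 gap has 3214 bp in both builds. On the downstream side the extremes were STE6 with 7 bp and SWH1, an oxysterol-binding protein gene, with 8139 bp, each to an ARS feature.

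In 236 long ORFs the upstream gene is the same in W303 and R64. The gap was equal in 200 of them, differed by 1 to 10 bp in 19 and by more in 17. The largest increase was at STT4, a phosphatidylinositol 4-kinase gene, with 934 bp against 287 bp, where the feature of its divergent neighbour UBC12 is shorter in W303 by the same 647 bp. The same held at BPH1 beside RPS14A (442 bp) and at MLP1 beside RPL40B (302 bp). At FKS1 the gap was 401 bp longer in W303 with both genes of equal length. In 7 of the 17 the change of the gap equals the change in the annotated length of the neighbour, and in 2, YRF1-3 and MIP1, that of the long ORF itself.

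Orientation to the neighbours was close to that of other Verified ORFs. The upstream gene was divergent, that is on the opposite strand, in 134 of 261 long ORFs with a stranded upstream gene (51.3%), against 52% of all Verified ORFs, and tandem in 127. The downstream gene was convergent in 141 of 256 (55.1%), against 52.2%, and tandem in 115. Both a divergent upstream and a convergent downstream gene were found in 74 of 255 (29.0%, all Verified ORFs 28.1%) and tandem genes on both sides in 57 (22.4%, all Verified ORFs 23.6%). Of 262 long ORFs with a strand 125 (47.7%) were on the plus strand, against 50.4%. With a divergent upstream gene the median gap to that gene was 678.5 bp and with a tandem one 492 bp, and in other Verified ORFs it was 548.5 and 413 bp. On the downstream side the medians in convergent pairs were 238 and 229 bp, and in tandem pairs 420 and 416 bp. Long ORFs had the longer median gap in both orientations on the start codon side, and on the stop codon side the medians differed by less than 10 bp.

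No strand was given for VTH1 and VTH2 (0.758% of members, all Verified ORFs 1.99%). They are near-identical homologues of the vacuolar sorting receptor gene PEP1 with 4650 bp each, and reads from their common sequence could not be assigned to one of them. VTH1 lies 356 bp from the left end of chromosome 9 and VTH2 12226 bp from the left end of chromosome 10.

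Long ORFs stood next to each other 17 times, which involved 34 of the 264 (12.9%), against 9.14% of all Verified ORFs with a long neighbour. Of the pairs 9 were tandem, 5 convergent and 3 divergent. The tightest was VPS8, encoding an endosomal tethering subunit, and TFC3, encoding the largest subunit of the tRNA gene factor TFIIIC, which end 62 bp apart on chromosome 1. The 62 bases between them in R64 are printed above. SMC4 and CSF1 made up the longest pair with 13134 bp and converge over 352 bp. The tandem pairs were BPH1 and SNT1, SWR1 and MSN5, SMC1 and BLM10, YTA7 and SLH1, DNA2 and PRP8, URA2 and TRK1, TOR2 and MNN4, ECM16 and POM152, and TOP2 and TCB2, with gaps from 281 bp (YTA7 and SLH1) to 1230 bp (URA2 and TRK1). ADR1 and RAD9 (544 bp), PDR15 and TRS120 (269 bp) and NET1 and SMC3 (342 bp) were the other convergent pairs. The divergent pairs were MSH3 and CDC39 with 208 bp, SNF2 and YPK9 with 916 bp and MET5 and IML1 with 1281 bp. The gap was that of R64 to within 1 bp in 15 of the 17 pairs. The others were MSH3 and CDC39, with 296 bp in R64, and SMC4 and CSF1, with 355 bp.

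The long ORFs covered 1253183 bases, which is 10.2% of the nuclear bases and 15.0% of the bases inside gene features. By number they are 4.70% of gene features and 5.20% of Verified ORFs. A share of bases above the share by number follows from the rule, which used length. A long ORF was the nearest feature of 11.4% of nuclear bases, those inside it included. No ChIP peak was assigned to these ORFs here.

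Every chromosome held at least 7 long ORFs, and there were 2.15 per 100000 bp over all. Chromosome 10 had the highest density with 23 ORFs (3.02 per 100000 bp), followed by chromosome 1 with 7 (2.78) and chromosome 3 with 9 (2.64). Chromosome 8 had the lowest with 9 (1.59), followed by chromosome 5 with 10 (1.75) and chromosome 15 with 20 (1.80). As a share of the Verified ORFs of the chromosome, the values ran from 3.60% on chromosome 8 to 8.97% on chromosome 1, and as a share of its bases from 8.11% on chromosome 15 to 13.8% on chromosome 10. Chromosome 4, the longest, held the most with 32.

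**Figure D4:**
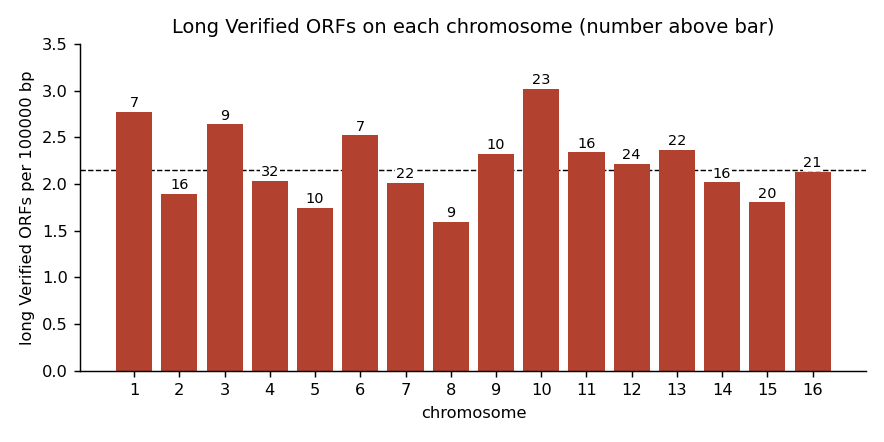
Long Verified ORFs per 100000 bp on each of the 16 chromosomes, with the number of ORFs above each bar and the value over all chromosomes, 2.15, as a dashed line. The bars run from 1.59 on chromosome 8 to 3.02 on chromosome 10.

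Within 30000 bp of a chromosome end there were 9 long ORFs (3.41%), against 4.61% of all Verified ORFs. They were VTH1 at 356 bp, YRF1-3, a Y′ element helicase gene, at 596 bp, NFT1 at 9399 bp, VTH2 at 12226 bp, PCA1, a cadmium-exporting ATPase gene, at 23338 bp, DAN4 at 26239 bp, OXP1, the 5-oxoprolinase gene, at 27758 bp, VMR1, an ABC transporter gene, at 28197 bp and AXL1, a protease gene of a-factor maturation, at 29285 bp. AXL1 lies 162395 bp from an end in R64. The distance to the nearest end differed by more than 20000 bp between the builds in 52 long ORFs, all of them on chromosomes 1 (3), 4 (16), 12 (13) and 16 (20). On chromosome 16 the order of the long ORFs departs from R64 once, between SKI3 and IQG1, and the other 247 neighbouring steps of the series of long ORFs have the R64 order. All 264 are on the chromosome of their R64 namesake, and all 262 with a strand have its strand.

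Within 20000 bp of a centromere there were 15 long ORFs (5.68%), against 5.83% of all Verified ORFs. TFC3 was the nearest at 298 bp from CEN1, and the centromere is the nearest feature upstream of it. UTP20 followed at 3089 bp, VPS8 at 3933 bp, BLM10 (a proteasome activator) at 4162 bp, SIN3 (a histone deacetylase subunit) at 5035 bp, CYR1 (adenylate cyclase) at 5069 bp, PMC1 at 7478 bp, NCR1 (a sterol transporter of the vacuole) at 7813 bp and PAN1 (endocytosis) at 9719 bp. The remaining 6, SMC1, BUD3, UFD4, SEC3, SNQ2 and MSB2, lay between 10966 and 19904 bp.

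ARS consensus matches were the only features inside long ORFs. They were found in 17 ORFs (6.44%), 1 in each, against 1.52% of all Verified ORFs. Per length the difference was smaller, since long ORFs had 1.36 matches per 100000 bp of ORF and the other Verified ORFs 0.924. Both were under the 2.25 per 100000 bp of the nuclear genome. The ORFs were RIF1, TAF2, TRM3, USO1, OSH2, TSC11, CCH1, TRA1, KOG1, TAO3, BCK1, SCP160, URB2, OXP1, RKR1, THO2 and PDR10. RIF1, whose product controls the timing of origin firing, holds TTTTATATTTT at 35.9% of its length from the start codon, and TRA1 holds ATTTATGTTTA at 18.3%. TTTTATATTTA was the most frequent word, with 5 ORFs. Positions ran from 9.40% of the ORF in OXP1 to 97.7% in TRM3, a tRNA methyltransferase gene. Each word occurs exactly once, counting both strands, in the R64 sequence of the same gene.

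The size note of the annotation called 15 of the 264 long ORFs different from S288C (5.68%), against 8.98% of all Verified ORFs. The 249 others noted as the same all have the R64 length. In R64, 2 long ORFs (0.758%) have a coding sequence in more than 1 part, TFC3 and YRF1-3, against 4.65% of all Verified ORFs. Among other Verified ORFs with a coding sequence in 1 part 6.59% were noted as different, among those with a name used once 8.43%, and among all the others 9.16%. The others include features as short as 9 bp. They also include long genes whose feature is under 3500 bp in W303, such as SSD1 and BUD4, both noted as different. The rule thus bears on these shares. TFC3 has 3573 bp from end to end but 3483 bp of coding sequence in R64, under the threshold. URA2 was noted as different with 6645 bp in both builds, which leaves 14 long ORFs (5.30%, all Verified ORFs 9.18%) whose length differs, 6 longer and 8 shorter in W303.

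**Figure D5:**
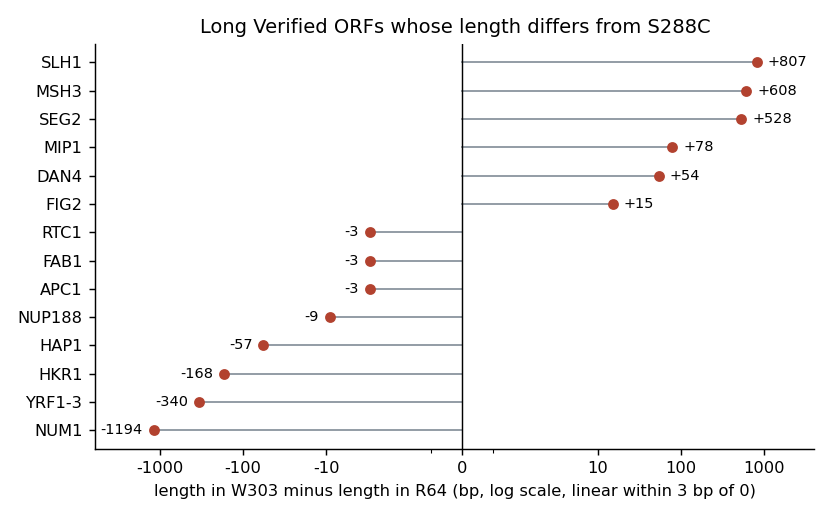
Length in W303 minus length in R64 (bp, log scale on both sides of 0 and linear within 3 bp) for the 14 long ORFs whose length differs. Values run from -1194 bp in NUM1 to 807 bp in SLH1, and 5 ORFs differ by 15 bp or less.

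NUM1 had the largest difference, with 7053 bp against 8247 bp in R64, and the gaps to its neighbours KGD2 and CTH1 are the same in both builds. The 1194 bp are therefore missing from within the ORF. Its R64 sequence holds a tract of 1767 bp with a period of 192 bp, and the difference is 6.22 periods, not a whole number. HKR1 had 5241 bp against 5409 bp. Here the 168 bp equal the length of exactly 2 units of the 84-bp repeat printed above. R64 holds a tract of 970 bp of this repeat, and the unit that follows the printed one in R64 is identical to it. Which bases of HKR1 are absent from W303 was not read. DAN4 was 54 bp longer in W303 (3540 against 3486 bp) with both flanking gaps unchanged. It has a tract of 509 bp with a period of 72 bp, and the difference is 0.750 of a period. SEG2, an eisosome gene, was 528 bp longer (3927 against 3399 bp) with unchanged flanking gaps, and the best period in its R64 sequence is short, 12 bp over 39 bp. FIG2, a wall adhesin gene of mating, was 15 bp longer with 4845 bp.

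Small differences occurred in ORFs with runs of one repeated codon. FAB1 and RTC1 were 3 bp shorter and NUP188 9 bp shorter than in R64, with the flanking gaps unchanged. Repeats of 1 codon were measured as the longest run of bases that equal the base 3 positions on, which was 43 bases in FAB1, 27 in RTC1 and 25 in NUP188 and FIG2. Runs of 25 bases or more occurred in 4 of the 14 ORFs that differ in length and in 3 of the 250 that do not (1.20%). In these 250 the median of the longest run was 7 bases. The limit of 25 bases is the very run length of NUP188 and FIG2, and the measure was chosen after values were seen. The counts are therefore a description and no test. APC1, the largest subunit of the anaphase-promoting complex, was also 3 bp shorter and had a longest run of 6 bases. In all, 9 of the 14 ORFs have both flanking gaps within 1 bp of R64.

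In the remaining 5 ORFs at least 1 flanking gap differs from R64 by more than 1 bp. The MIP1 feature has 3843 bp against 3765 bp and begins 78 bp further upstream, with a gap to VMA4 of 192 against 270 bp. The R64 sequence has an ATG at this place, in frame with the annotated start and with no stop codon between them, as printed above. The MSH3 feature has 3665 bp against 3057 bp and is the only long ORF whose length is not a multiple of 3. It begins 88 bp further upstream, the R64 sequence has an in-frame ATG 87 bases before the start codon, and the gap to its downstream neighbour KIN82 is 197 bp in both builds. The other 520 bp are thus inside the span of the feature. SLH1 has 6711 bp against 5904 bp with the same upstream gap of 281 bp. Its downstream gap to YGR273C is 213 bp against 1020 bp, 807 bp less. In R64 the nearest gene on that side is not YGR273C but YGR271C-A. A second feature named SLH1, of 3141 bp from 23291 to 26431 on chromosome 7, lies between RTG2 and RMR1, where R64 has HFM1, a meiotic helicase gene for which the W303 file has no feature of its name. HAP1, a haem-responsive transcription factor gene, has 4452 bp against 4509 bp and a TKP/TY feature 653 bp downstream. Its gap to NDL1 upstream is 12 bp longer than in R64 and that to YLR257W downstream 507 bp shorter, neither of which is the 57 bp of the length. YRF1-3 has 5388 bp against 5728 bp, and the gap to COS6 is longer by the same 340 bp.

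Long genes of S288C can be absent from the set for other reasons. Of 337 R64 protein-coding genes of 3500 bp or more, 261 are members by name, 45 lie inside mobile elements, 14 have no W303 feature of their name, 9 are Uncharacterized in W303, 4 are FLO genes and 4 are shorter in W303. Of the last, SSD1 and BUD4 are not subtelomeric. SSD1, encoding an RNA-binding protein, has 2094 bp against 3753 bp, with the upstream gap of 1066 bp unchanged and the same 4381 bp from its start to the next gene. The feature ends after 698 codons, and codon 698 of R64 reads TAC, as printed above. BUD4, encoding a septin-associated protein of bud site selection, has 2517 bp against 4344 bp, and the span from its start to FIP1 is 4484 bp, 1 bp less than in R64. In R64 the bases 2516 to 2518 of BUD4, counted from its start codon, read TAG in another frame, and the W303 feature ends at its base 2517. W303 strains are known to carry truncating alleles of both genes. SEG2, MSH3 and DAN4 are members only by their W303 length, with 3399, 3057 and 3486 bp in R64.

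In W303, 16 further gene features have the length but not the class or name, 11 of them Uncharacterized, 4 FLO genes and 1, SDC25, with no class given. FMP27 with 7887 bp, YPR117W with 7470 bp and YLR422W with 5799 bp are the longest Uncharacterized ones, each with the R64 length. A feature named YPL216W with 3795 bp lies next to SNT2, from 253905 to 257699 on chromosome 7, between PCL10 and SNT2, where R64 has ITC1, a subunit gene of the Isw2 complex, with the same 3795 bp. A second feature of that name has 3300 bp and lies on chromosome 16, the chromosome of YPL216W in R64.

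Both neighbouring genes were those of R64 in 224 long ORFs (84.8%), 1 in 36 and none in 4, and in the other Verified ORFs both were kept in 86.4%. Many of the differences are R64 genes with no feature of their name in W303. When these were left out, a setting chosen after the data had been seen, 256 long ORFs (97.0%) kept both neighbours. The 8 others were YCF1, SNT2, VTH1, MLP2, SLN1, SSM4, BPT1 and IRA2. This setting was not computed for the other Verified ORFs, so the 97.0% cannot be set against their 86.4%. The neighbours that changed include the YPL216W feature beside SNT2, and a feature named from another strain's ORFs that lies between MLP2 and SLN1.

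Base composition was read from R64. The GC content of the long ORFs had a median of 38.0% (quartiles 36.7 and 39.2%) and that of the other Verified ORFs 39.8% (quartiles 37.9 and 42.2%). The highest value among long ORFs was 44.8% and among the others 59.1%. The long ORFs were thus lower by 1.83 points at the median, and the interquartile ranges overlapped.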

How the data were processed

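The libraries were ChIP and input DNA of tagged Uls1 and Top2, and each library came from pooled ChIPs. The deposited data used here are a list of features that the authors drew up for the W303 assembly ASM216351v1. Its values are start and end positions in bases and labels, with no count, signal or other score of any library, so depth does not bear on them. The authors took features from the Yeast Genome Annotation Pipeline, found missed ORFs by BLASTn and noted for each ORF its S288C name and whether its size is the same. According to the methods of the study, BWA aligned the reads to W303. The processing notes of the submitters list ChIPseeker, deepTools, bedtools, MACS2, SAMtools, BWA and a build, R64, with no role for the build and no tool version.

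Gaps ran to the nearest feature on either strand, and overlap counted as 0. Features within an ORF were not neighbours. ORFs were matched to R64 (RefSeq) by systematic name, each build in its own coordinates. A repeat tract was the best stretch of bases equal to the base 1 period on, each mismatch costing 4 matches, with periods in steps of 3 up to 600 bp. Genes were named by rule: ULS1 and TOP2, the 20 longest, the 5 on each side of the threshold, size differences, extreme gaps, pairs, ORFs near ends (here extended to 30000 bp) or centromeres and fixed lists. Paralogues, roles, GO terms, codon runs, downstream extremes, changed upstream gaps and genes outside the set were chosen after values were seen. The members and lists were chosen with earlier results of these data known. Alternatives changed the length limit, the ORFs kept, the neighbours counted, the windows and the build. The gap rules were tested on simulated data. Scripts ran under matplotlib 3.10.9, scipy 1.17.1, numpy 2.4.6 and Python 3.11.15.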

Additional observations from a re-analysis of the deposited data

How the results depend on the processing

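Of 31 alternatives, 24 stayed within a set range and 7 did not. For counts and densities the range was 1.5 times the value. For shares and medians it was the exact binomial or order-statistic interval at 95%. These intervals treat ORFs or bases as independent draws, which they are not, so the tally is no measure of error. For the share of bases the interval was 10.17 to 10.21%, so nearly any change of the limit falls outside. The 176 ORFs and 1.43 ORFs per 100000 bp at 4000 bp or more lay at the 1.5-fold edge and were counted as within it. A limit of 3000 bp gave 435 ORFs, 14.7% of nuclear bases and 3.54 ORFs per 100000 bp, and a limit of 4000 bp gave 7.54% of nuclear bases and a divergent upstream gene in 57.5% of ORFs. This share was 51.1% of ORFs with a strand in the main set. Within 20000 bp of an end there were 1.52% of long ORFs, against 3.41% within 30000 bp. Counting only R64 genes with a W303 feature as neighbours, an alternative chosen after seeing the data, gave 97.0% with both kept. The median upstream gap ranged from 495 bp (R64) to 577 bp (gene features only) and the share noted as different from 5.29% to 6.39%. Leaving out overlapping neighbours changed no gap, since no long ORF had one. The limits follow from the annotation: tRNA features are absent on chromosomes 8 to 16, and the W303 sequence was not used here, so no change within an ORF was read from it. No paired analysis was possible because the results come from an annotation and from no library.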
